A study of Mus musculus with 11 samples.

Results

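The paralogous miR-23a/27a/24-2 and miR-23b/27b/24-1 clusters were examined in mouse cortex after permanent middle cerebral artery occlusion (pMCAO). Their members were taken by name from 11 tables of microRNA (miRNA) read counts, which gave 8 of the 1907 listed miRNAs: mmu-miR-23a-3p, mmu-miR-23b-3p, mmu-miR-27a-3p, mmu-miR-27b-3p, mmu-miR-27b-5p, mmu-miR-24-3p, mmu-miR-24-1-5p and mmu-miR-24-2-5p, written without the mouse prefix mmu in what follows. All 8 passed the filter on low counts, which kept 479 miRNAs for testing. The suffixes 5p and 3p name the left and right arm of the hairpin from which a mature miRNA is cut.

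Small RNA of 6 sham and 5 pMCAO libraries was sequenced 3 days after surgery, from male Balb/cOlaHsd mice labelled as 3 months old. In pMCAO the left middle cerebral artery was closed by coagulation and never reopened, a model of stroke without reperfusion, and in sham mice the artery was only exposed and lifted. The sham tissue is labelled as cortex and the pMCAO tissue as peri-ischemic cortex, the region around the ischemic core. In the study's methods the peri-ischemic region is named for sham mice too, so whether the sampled region differed between the groups is not settled by these sources. The tables of both groups are also marked as vehicle, with the agent not given in the sources used here. Library totals were 1429037 to 2319810 counts in sham and 744877 to 1411620 in pMCAO, so depth differed between the groups without overlap.

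In each cluster the miR-23, miR-27 and miR-24 hairpins lie side by side on a chromosome and are known to be made from a shared primary transcript. The clusters are best known from blood vessels, where they are abundant in endothelial cells and take part in vessel sprouting and repair, and miR-23 and miR-27 have also been described as repressors of the apoptosis factor Apaf1 in injured neurons. A miRNA finds its target mRNAs mainly through its seed, bases 2 to 8 from the 5′ end, so the a and b forms of a pair with a common seed are expected to recognise largely the same targets.

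The mature sequences of the members are given in RNA letters from 5′ to 3′, with the seed in capitals, to show how closely the a and b forms resemble each other. They are from RefSeq, which matched 7 of the 8 members by name, with mouse build GRCm38.p6.
miR-23a-3p: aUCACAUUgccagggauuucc
miR-27a-3p: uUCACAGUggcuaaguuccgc
miR-27b-3p: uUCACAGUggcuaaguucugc
miR-24-3p: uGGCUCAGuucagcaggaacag
miR-24-2-5p: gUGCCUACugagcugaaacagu
miR-24-1-5p: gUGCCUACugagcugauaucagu
miR-27b-5p: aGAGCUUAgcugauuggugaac

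miR-27a-3p and miR-27b-3p had the same seed and differed by 1 substitution, C19U, with miR-27a-3p given first and positions counted from 1 at the 5′ end. Their first 18 bases were the same, so only the 3′ end of a read separates them. miR-24-2-5p and miR-24-1-5p shared the seed and their first 16 bases. miR-23a-3p and miR-23b-3p are also known as near-identical paralogs, and the division of reads within each of these pairs rests on few bases. The seed of miR-27 overlaps that of the abundant neuronal miRNA miR-128-3p, and both contain the run UCACAGUG of 8 bases, which starts at base 2 of miR-27a-3p and at base 1 of miR-128-3p.
miR-128-3p: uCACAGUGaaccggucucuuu

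The mature miR-24-3p was the same at both loci and therefore belongs to neither cluster alone. The RefSeq hairpins of Mir24-2 (a cluster) and Mir24-1 (b cluster) are shown with miR-24-3p in capitals, since the sequence around it is what distinguishes the loci.
Mir24-2: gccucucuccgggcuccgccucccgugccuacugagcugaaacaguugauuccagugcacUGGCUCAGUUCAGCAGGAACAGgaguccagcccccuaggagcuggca
Mir24-1: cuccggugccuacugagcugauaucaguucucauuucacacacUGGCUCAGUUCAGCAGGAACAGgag

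Of the other listed miRNAs with a matched sequence, miR-5124b, miR-6369, miR-6410 and miR-6413 had the seed of miR-24-3p, and each had 0 counts in every library. No other listed name with a matched sequence shared the seeds of miR-23a-3p, miR-27 or miR-27b-5p. miR-23b-3p was the member without a matched sequence, so this search could not show whether it has the seed of miR-23a-3p. A count of 0 allows up to 3 counts, which is 4.03 CPM (counts scaled to a library of 1000000) in the smallest library and 1.29 CPM in the deepest, for counting error only.

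The a cluster lies on the plus strand at chr8:84208518-84208921 of GRCm38.p6, a patch of the mm10 build to which the reads were mapped, and spans 404 bases. Mir23a (chr8:84208518-84208592) and Mir27a (chr8:84208672-84208758) overlapped no other annotated gene. Mir24-2 (chr8:84208815-84208921) overlapped the antisense Mir3074-2 and the first 2 bases of the lincRNA Gm26532. The b cluster lies on the plus strand at chr13:63300484-63301275 and spans 792 bases. It sits inside the protein-coding gene 2010111I01Rik on the same strand and inside Fancc, a DNA repair gene, on the opposite strand. Mir23b (chr13:63300484-63300557) was intronic in both genes. Mir27b (chr13:63300712-63300784) and Mir24-1 (chr13:63301208-63301275) fell wholly within an annotated exon of 2010111I01Rik and were intronic in Fancc. Mir24-1 also lay opposite Mir3074-1. The antisense miR-3074 products were close to absent, with 0 to 6 counts for miR-3074-1-3p, 0 to 1 for miR-3074-5p and 0 for miR-3074-2-3p in every library.

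Together the members took 3.34% ± 0.210 of each sham library (SD, n = 6) and 3.30% ± 0.405 of each pMCAO library (SD, n = 5). The a cluster members, without the shared miR-24-3p, held 1.03% ± 0.0855 of the counts in sham and 1.15% ± 0.201 in pMCAO. The b cluster members held 1.34% ± 0.0698 in sham and 1.20% ± 0.119 in pMCAO. With miR-24-3p left out, b cluster products thus exceeded a cluster products by mean share in sham, while the mean shares were closer in pMCAO. miR-24-3p itself held 0.974% ± 0.0707 of the counts in sham and 0.946% ± 0.139 in pMCAO. Because it cannot be assigned to a locus, these shares do not give the order of the whole clusters. They are shares of raw library totals, without the scaling used below.

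Levels are given as CPM scaled by the trimmed mean of M values (TMM), a factor that evens out differences in composition between libraries, and they compare numbers of reads of mature miRNAs of nearly equal length. In sham, miR-23b-3p was the most abundant member at 11754 ± 255 CPM (SD, n = 6) and ranked 16 among all listed miRNAs. miR-24-3p followed at 10284 ± 465 CPM and ranked 20, and miR-23a-3p at 9375 ± 625 CPM ranked 24. The miR-27 forms were lower, with 2310.0 ± 200.05 CPM for miR-27b-3p and 1406 ± 163 CPM for miR-27a-3p. The 5p strands were far less abundant, at 99.1 ± 9.56 CPM for miR-24-2-5p, 40.2 ± 6.34 CPM for miR-24-1-5p and 7.76 ± 2.19 CPM for miR-27b-5p.

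Each step of that order held in 6 of 6 sham libraries. Only miR-24-3p and miR-23a-3p were neighbours whose ranges overlapped across the sham libraries. In pMCAO the lower steps, from miR-23a-3p down, held in 5 of 5 libraries, but the order of the top 3 members did not. There miR-23b-3p exceeded miR-24-3p in 2 of 5 libraries, and miR-24-3p exceeded miR-23a-3p in 2 of 5. Within the a cluster, mean levels were 9375 CPM for miR-23a-3p and 1406 for miR-27a-3p in sham, and 9359 and 1346 in pMCAO. Within the b cluster they were 11754 CPM for miR-23b-3p and 2310 for miR-27b-3p in sham, and 9190 and 2030 in pMCAO. The miR-23 and miR-27 products of a cluster were thus not recovered at equal levels in either group.

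**Figure D1:**
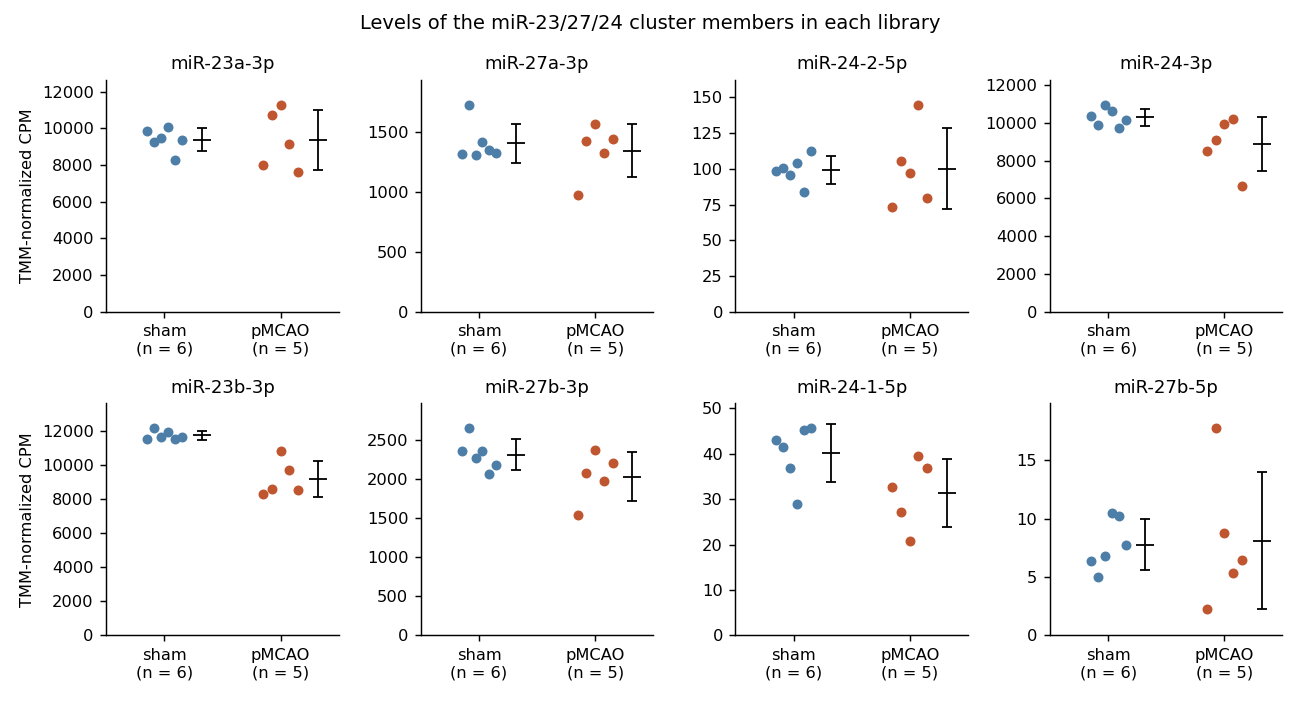
TMM-normalized CPM (vertical axis, linear, starting at 0) of the 8 members in each sham (blue, n = 6) and pMCAO (orange, n = 5) library, with bars for the mean ± SD beside the points. The miR-23b-3p points of the groups are apart (sham at 11509 CPM or above, pMCAO at 10803 CPM or below), and those of the other 7 members overlap.

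Whether the clusters changed after pMCAO was tested with edgeR's quasi-likelihood test across all 479 miRNAs, with a call at a Benjamini-Hochberg adjusted p under 0.05. miR-23b-3p was lower in pMCAO and was the 1 member of 8 that was called. Across all miRNAs 34 of 479 were called, or 7.10%, with 21 higher and 13 lower. miR-23b-3p was also the 1 member of 8 whose groups did not overlap, against 36 of 479, or 7.52%. With a background of that size, 1 of 8 is no sign that the clusters as a whole stood out. The median log2 fold change was -0.12 over the 8 members and 0.0015 over all miRNAs tested, with 2 members above 0 and 6 below. In bulk tissue, fewer cells of a type and less RNA per cell cannot be told apart.

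miR-23b-3p, of the b cluster, measured 8299, 8611, 10803, 9701 and 8537 CPM in pMCAO libraries 1 to 5. The sham libraries lay between 11509 and 12166 CPM, with a median of 11663. Every pMCAO library was below every sham library, and the spread in pMCAO was wider, with an SD of 1051 CPM against 255. The log2 fold change was -0.35 ± 0.0905 (SE), a fold of 0.782, with a 95% interval of -0.55 to -0.16 and an adjusted p of 0.0356 by edgeR's quasi-likelihood test. DESeq2 gave -0.36 with an adjusted p of 0.0227. The direction held in all 20 alternatives run, but the call was lost in 14, among them each fit without sham replicate 1, 2, 3, 4 or 6 or without pMCAO replicate 1, 2 or 5 (log2 fold changes of -0.35 to -0.30, edgeR adjusted p of 0.0572 to 0.138). It was also lost after every library was thinned to the smallest total (-0.33, edgeR adjusted p = 0.0593), a comparison at equal depth. In the fits without a library the direction could hardly turn, since the groups did not overlap.

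miR-23a-3p, the a cluster form, measured 7991, 10749.5, 11292, 9121 and 7641 CPM in pMCAO libraries 1 to 5. The sham libraries lay between 8264 and 10044 CPM, with a median of 9410.2. The pMCAO libraries thus reached above and below the sham range, and the means were near each other at 9375 CPM in sham and 9359 ± 1624 CPM in pMCAO. The log2 fold change was -0.0024 with a 95% interval of -0.25 to 0.24 (edgeR adjusted p = 0.992), so a difference larger than about those bounds was not seen, while a smaller one could not be told from the spread. The sign of this value turned in 12 of the 20 alternatives.

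miR-24-3p, which both loci can produce, measured 8490.0, 9084, 9918, 10225 and 6676 CPM in pMCAO. The sham libraries lay between 9704 and 10968 CPM, with a median of 10250.3. pMCAO libraries 3 and 4 lay within the sham range and the other 3 below it, with library 5 lowest. The log2 fold change was -0.21 ± 0.11 (SE), with a 95% interval of -0.45 to 0.023 and an edgeR adjusted p of 0.251.

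miR-27b-3p, which has been studied as a regulator of lipid metabolism and vessel growth, measured 1539, 2070.2, 2364, 1971 and 2205 CPM in pMCAO. The sham libraries lay between 2057 and 2647 CPM, with a median of 2310.1, so that pMCAO libraries 1 and 4 were below the sham range. The log2 fold change was -0.19 with a 95% interval of -0.44 to 0.068 (edgeR adjusted p = 0.398). Its a cluster partner miR-27a-3p measured 973, 1423, 1566, 1327 and 1438 CPM in pMCAO, against 1305 to 1729 in sham with a median of 1337. Only pMCAO library 1 lay outside the sham range, and the log2 fold change was -0.063 with an interval of -0.34 to 0.22 (edgeR adjusted p = 0.850).

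The rarer 5p strands rest on few reads. miR-24-1-5p, from the b cluster, had 47 to 83 counts in sham and 23 to 57 in pMCAO, and its level was 40.2 CPM in sham and 31.4 ± 7.52 CPM in pMCAO. Its log2 fold change of -0.35 was of the same size as that of miR-23b-3p, but with a 95% interval of -0.78 to 0.077 it did not pass (edgeR adjusted p = 0.317). miR-24-2-5p, from the a cluster, had 115 to 201 counts in sham and 65 to 191 in pMCAO, and its log2 fold change was 0.013 with an interval of -0.35 to 0.38 (edgeR adjusted p = 0.992). miR-27b-5p had 10 to 17 counts in sham and 2 to 15 in pMCAO, too few to show any but a large difference (log2 fold change 0.032, interval -0.81 to 0.88, edgeR adjusted p = 0.992). The remaining 5p strands, with 1 to 8 counts for miR-23a-5p, 1 to 15 for miR-23b-5p and 1 to 7 for miR-27a-5p, were not tested.

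**Figure D2:**
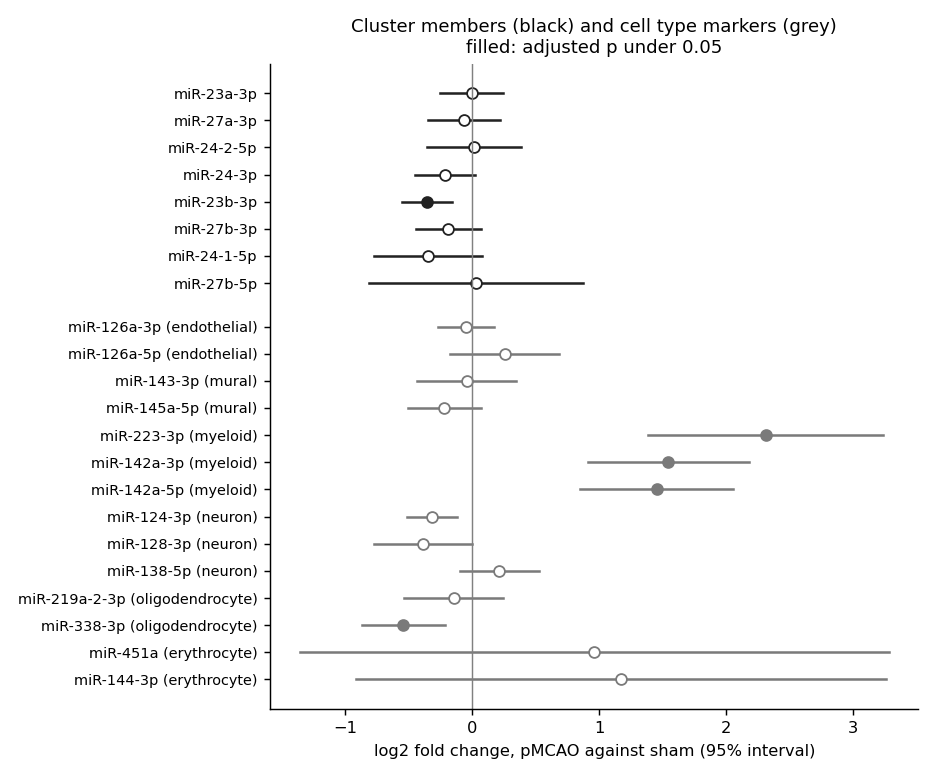
Log2 fold change of pMCAO against sham (horizontal axis, with 95% intervals) for the 8 members in black and for cell type marker miRNAs in grey, with filled points at an edgeR adjusted p under 0.05. Of the members, only the interval of miR-23b-3p (-0.55 to -0.16) lies away from 0, while the 3 myeloid markers lie above 1.

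The a and b clusters were then compared within each library, as the log2 ratio of the counts of an a form to its b partner with 0.5 added to each count. Such a ratio does not depend on how libraries are scaled. It does share its counts with the tests above, so it is not separate evidence on miR-23b-3p. The 3 ratios were compared between the groups by 2-sided exact permutation tests of the absolute difference in means over the 462 ways to divide the libraries, with Benjamini-Hochberg adjustment over the 3.

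In sham cortex miR-23a-3p was the minor form of miR-23, and in pMCAO the forms were close to equal. The linear ratio of miR-23a-3p to miR-23b-3p was 0.963, 1.25, 1.05, 0.940 and 0.895 in pMCAO libraries 1 to 5. In sham it lay between 0.718 and 0.854, with a median of 0.807. All 5 pMCAO libraries were above all 6 sham libraries, and in pMCAO libraries 2 and 3 miR-23a-3p was the more abundant form. As a share of both forms, miR-23a-3p made up 44.3% ± 1.60 in sham (SD, n = 6) and 50.3% ± 3.25 in pMCAO (SD, n = 5). The log2 ratio was -0.33 ± 0.0935 in sham and 0.016 ± 0.19 in pMCAO. It was thus higher by 0.34 in pMCAO, or 1.27-fold, with a 95% interval of 0.163 to 0.548 from the permutation test. The exact permutation p was 0.00216, the smallest these arrangements can give, and 0.00649 after adjustment. The difference was 0.269 to 0.389 when each library was left out in turn and 0.356 with libraries thinned to the smallest total. It stayed past the threshold in all 14 alternatives run. For the fits without a library that outcome was fixed in advance, since groups that do not overlap stay apart when any library is removed. Those fits therefore bear only on the size of the difference. A pseudocount of 2 could hardly move the difference either, since each form had at least 7104 counts in every library.

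The ratio of miR-27a-3p to miR-27b-3p moved the same way but by less. It was 0.632, 0.688, 0.663, 0.673 and 0.652 in pMCAO libraries 1 to 5, against 0.559 to 0.655 in sham with a median of 0.605. pMCAO libraries 2, 3 and 4 lay above every sham library, and libraries 1 and 5 lay within the sham range. miR-27a-3p made up 37.8% ± 1.52 of both forms in sham and 39.8% ± 0.762 in pMCAO, so miR-27b-3p remained the major form in every library. The difference in log2 ratio was 0.12, or 1.09-fold, with a 95% interval of 0.018 to 0.227 (exact permutation p = 0.0325, adjusted p = 0.0487). That call was lost when libraries were thinned to the smallest total (0.129, exact permutation adjusted p = 0.114) and without sham replicate 1, 3, 4 or 6 or pMCAO replicate 2, 3, 4 or 5, where the exact adjusted p was 0.0714 to 0.129.

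For miR-24, whose 3p strand cannot be assigned to a locus, only the 5p strands tell the clusters apart. The ratio of miR-24-2-5p to miR-24-1-5p was 2.22, 3.81, 4.58, 3.65 and 2.15 in pMCAO libraries 1 to 5. In sham it was between 1.85 and 3.57, with a median of 2.44. pMCAO libraries 2, 3 and 4 were again above every sham library, but the groups overlapped. The log2 difference of 0.34 equalled that of miR-23 in size, with a much wider interval of -0.233 to 0.89 (exact permutation p = 0.197, adjusted p = 0.197). The a cluster product was the major form here in every library of both groups, at 71.1% ± 4.30 of both 5p strands in sham and 75.6% ± 6.39 in pMCAO, whereas in sham the b form was the major one of miR-23 and miR-27.

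**Figure D3:**
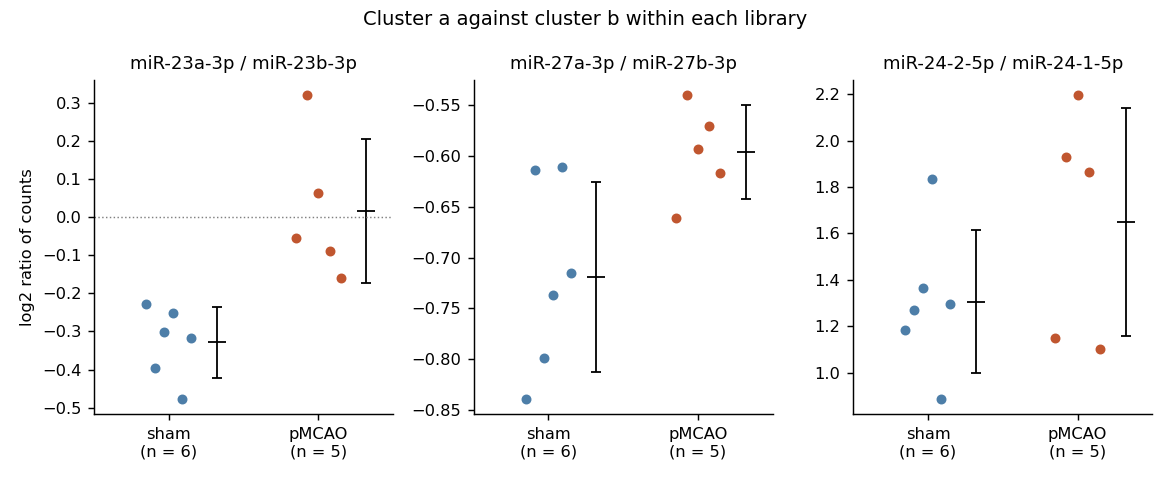
Log2 ratio of an a cluster miRNA to its b cluster partner (vertical axes, which differ between panels) in each sham (blue, n = 6) and pMCAO (orange, n = 5) library, with bars for the mean ± SD. The miR-23 ratio is separate between the groups (at most -0.23 in sham, at least -0.16 in pMCAO), while the miR-27 and miR-24-5p ratios overlap.

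The Mir27b hairpin was the only one of the miR-23 and miR-27 hairpins whose 5p strand passed the filter. miR-27b-5p made up 0.341% ± 0.113 of the hairpin's reads in sham and 0.386% ± 0.272 in pMCAO, with the lowest share, 0.146%, in pMCAO library 1, where it had 2 counts, and the highest, 0.849%, in pMCAO library 2. With counts this low the ratio was not tested.

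To describe which miRNAs had the pattern most like that of each member over the 11 libraries, log2 levels were centred per miRNA and compared by their root mean square difference, where 0 means the same profile. miR-27a-3p and miR-27b-3p, the forms that differ by 1 base, were 0.092 apart and were among each other's nearest 3 profiles. The miR-23 forms were 0.215 apart. The profile nearest to miR-23a-3p was miR-350-3p at 0.127, followed by miR-674-5p at 0.156 and miR-24-3p at 0.160. miR-23b-3p was nearest to miR-582-5p at 0.118, miR-29c-5p at 0.119 and miR-30d-5p at 0.120. miR-24-3p was closer to miR-23b-3p (0.139) than to miR-23a-3p (0.160), and both were closer to it than either miR-27 form (0.223 and 0.256). All profiles share libraries and scaling, so these distances are a description only.

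Marker miRNAs of the cell types in cortex were read beside these results. The myeloid list (miR-142a-3p, miR-142a-5p and miR-223-3p) rose in pMCAO, with 3 of 3 called and a summed level of 275 to 696 CPM in sham and 733 to 3699 CPM in pMCAO. pMCAO library 2 had the highest myeloid sum, the highest ratio of miR-23a-3p to miR-23b-3p and the fewest counts. pMCAO library 3 came next in sum and ratio, at 1743 CPM and 1.05. The order then differed, as library 1 had the lowest sum, 733 CPM, at a ratio of 0.963. Library 5 had the lowest ratio, 0.895, at 1654 CPM. Without pMCAO library 2 the log2 difference in the miR-23 ratio was 0.269 (exact permutation adjusted p = 0.0143, a pass fixed in advance by the lack of overlap). The endothelial list (miR-126a-3p and miR-126a-5p), of the cell type in which the clusters are best known, had 0 of 2 called and summed to 9192 to 13016 CPM in sham and 9518 to 13653 CPM in pMCAO. The mural list (miR-143-3p and miR-145a-5p) also had 0 of 2 called, at 6800 to 11408 CPM in sham and 6263 to 8444 CPM in pMCAO.

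Of the neuronal list (miR-124-3p, miR-128-3p and miR-138-5p), abundant in every library, 0 of 3 were called. Its sum was 285494 to 365884 CPM in sham and 245310.2 to 290572 CPM in pMCAO. The log2 fold change of miR-124-3p was -0.32 (edgeR adjusted p = 0.0523), close to that of miR-23b-3p. Its groups did not overlap either, with sham at 180835 CPM or above and pMCAO at 179928 CPM or below. Those of miR-128-3p and miR-138-5p overlapped. miR-128-3p, which shares a run of bases with miR-27, had a log2 fold change of -0.39 (edgeR adjusted p = 0.201). miR-138-5p, the remaining marker of the list, had a value of the opposite sign, 0.21 (edgeR adjusted p = 0.431). In the oligodendrocyte list miR-338-3p fell (log2 fold change -0.54, edgeR adjusted p = 0.0453) and miR-219a-2-3p did not pass, with sums of 3575 to 4485 CPM in sham and 2111 to 3937 CPM in pMCAO. Of the 3 erythrocyte markers 2 were tested and 0 called. Their sum was 637 to 4700.1 CPM in pMCAO and 48.6 to 268 CPM in sham libraries 2 to 6, but 5332 CPM in sham library 1, which stood apart from its group. Without sham library 1 the miR-23 log2 ratio difference was 0.365 (exact permutation adjusted p = 0.0238, again a pass fixed in advance). In the same setting miR-23b-3p had a log2 fold change of -0.35 (edgeR adjusted p = 0.0600). None of the lists had a marker at 0 in every library, and the part of these cell types and of depth in the results for miR-23 was not tested beyond the values given.

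**Figure D4:**
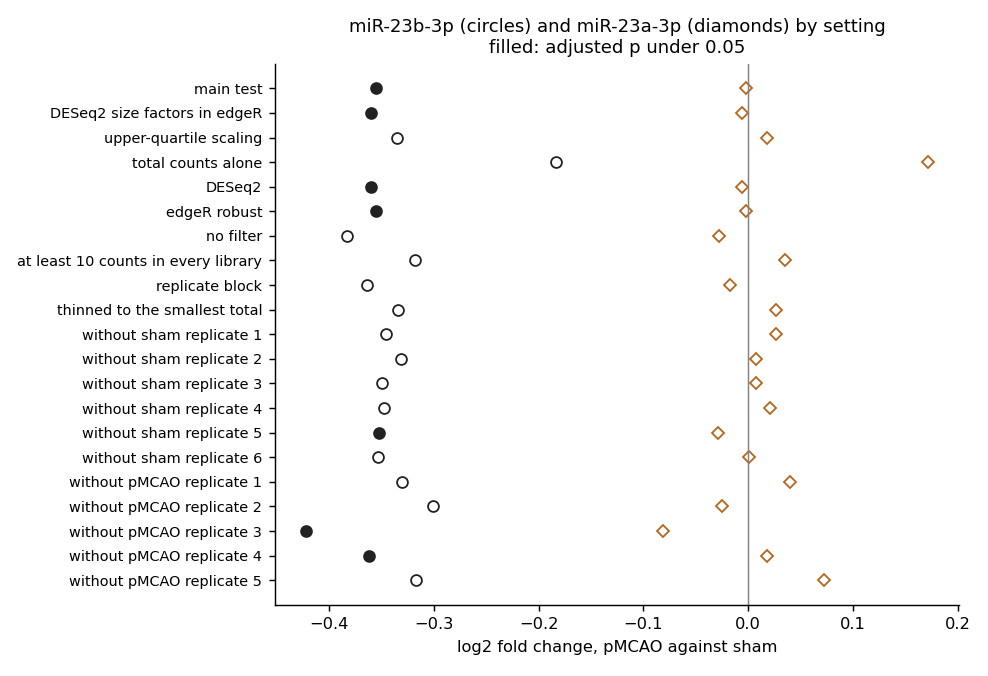
Log2 fold change of pMCAO against sham (horizontal axis) for miR-23b-3p (black circles) and miR-23a-3p (orange diamonds) in the test as reported and under each of 20 alternatives (vertical axis), filled at an adjusted p under 0.05. miR-23b-3p stays between -0.42 and -0.18 and miR-23a-3p between -0.081 and 0.17, with miR-23a-3p to the right of miR-23b-3p in every row.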

How the data were processed

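The deposited tables hold raw counts per mature miRNA (1907 names in each of 11 libraries). Per the labels and the study's methods, the authors enriched small RNA with the miRVana kit, built libraries with the Ion Total RNA-Seq Kit V2, kept reads of 20 to 30 bases, mapped them to mm10 with Bowtie and counted them with HTSeq on miRBase 21. How reads that match both miR-24 loci, or both forms of a pair, were counted is not given in the sources used here. Adapter ligation favours some sequences, so levels of different miRNAs compare reads, not molecules. Groups and replicate numbers came from the sample titles. They do not name the animals, and p-values measure the spread between libraries. The 25 pairs of libraries within a group all differed by more than counting noise (lowest chi-square per degree of freedom 18.0).

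Counts were filtered with edgeR's filterByExpr (minimum count 10, minimum total 15), scaled by TMM and fitted over all 479 miRNAs with edgeR 4.0.16 (quasi-likelihood test, limma 3.58.1, R 4.3.3), with DESeq2 1.42.0 as an alternative. The edgeR test was first run on simulated counts, with changes larger than those of the members. The permutation test was first run on simulated random values, not counts. Ratios used exact permutation tests. RefSeq sequences matched 1623 of the 1907 names. The named miRNAs were the members, the other arms of their hairpins, miRNAs with the same seed, miR-128-3p, the marker lists and the 3 nearest profiles of each member. The members and lists were chosen with earlier results of these data known. Alternatives were other scalings and filters, a replicate block, thinning, another pseudocount, medians, and leaving out each library.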

Additional observations from a re-analysis of the deposited data

Results flagged for a closer look

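Each of 24 sets of values was searched for a library that lay away from the rest of its group, and 1 was found, where chance gives about 1 in 20, or 1.2. It was the level of miR-27a-3p in sham, as log2 of TMM CPM + 1. Sham library 2 was at 10.8, against 10.5 for the next library, and this gap was 0.716 of the group's whole range. Sham library 2 was also the deepest library, with 2319810 counts. Its ratio of miR-27a-3p to miR-27b-3p was 0.653, just under the highest in sham, 0.655 in library 5.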

How the results depend on the processing

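The number of members called, 1, fell to 0 with upper-quartile scaling, total counts alone, no filter, a minimum of 10 counts in each library, the replicate block and thinning, and was 0 to 1 with each library left out. miR-23b-3p kept its direction in 20 of 20 alternatives and its call in 6, with edgeR or DESeq2 adjusted p of 0.0126 to 0.219. Its log2 fold change was -0.34 with upper-quartile scaling, -0.18 with total counts alone, -0.38 with no filter, -0.32 with at least 10 counts, -0.36 with the replicate block, -0.33 with thinning, and -0.42 to -0.30 with each library left out. In the fits without a library its direction could hardly turn, because the groups did not overlap. Total counts alone moved the median of all miRNAs to 0.18, against which miR-23b-3p was at -0.36, and turned the 21 higher and 13 lower calls into 43 and 1.

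The sign turned for 4 uncalled members, and the cause was not tested. For miR-23a-3p the log2 fold change was 0.018 with upper-quartile scaling, 0.17 with total counts alone, 0.035 with at least 10 counts, 0.027 with thinning and -0.081 to 0.073 with each library left out. miR-27a-3p was at 0.12 with total counts alone and -0.13 to 0.023 with each library left out. miR-24-2-5p was at -0.012 with no filter, -0.035 with thinning and -0.15 to 0.10 with each library left out. miR-27b-5p was at -0.030 with the replicate block and -0.34 to 0.23 with each library left out.

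The miR-23 ratio stayed past the threshold in 14 of 14 alternatives (0.255 to 0.389) and the miR-24-5p ratio short of it in 14 of 14 (0.206 to 0.583). For the miR-23 ratio the 11 fits without a library could not miss the threshold, because the groups did not overlap. A pseudocount of 2 could hardly move that ratio either, as the counts of both forms were high. The miR-27 ratio missed it with thinning (0.129) and in 8 of the 11 fits without a library (0.0987 to 0.144 over all 11).

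The sources used here do not say whether replicate numbers pair the libraries, and 5 correlations are too few to settle it. Deviations of same-numbered libraries correlated at -0.070 to 0.23, with 3 of 5 over 0.1, and 1 of 5 was closest to its own number. With the replicate block the calls over all miRNAs were 19 higher and 3 lower, and miR-23b-3p had an edgeR adjusted p of 0.0986. Depth limits the 5p strands most, since 2 counts of miR-27b-5p was the lowest value tested.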
